A study of Mus musculus with 7 samples.

Results

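The activated fibrotic fibroblast genes were 8 genes, chosen by name from the 55401 genes of the count table as genes that mark the matrix-producing fibroblasts of fibrotic lung. They were Cthrc1, Postn, Tnc, Fap, Ltbp2, Sparc, Runx1 and Cilp. The rule uses no measured value, but the genes were chosen with earlier results of these data known. They were described in 7 lung libraries from male C57BL/6 mice that were 6 to 8 weeks old, weighed 20 to 25 g and had all been given bleomycin into the trachea, which injures the lung and leads to fibrosis. The 4 BLM libraries came from bleomycin mice without hyperbaric oxygen, and the 3 BLM+HBO libraries came from bleomycin mice that breathed oxygen at 2.5 ATA for 90 min a day on 14 consecutive days from day 7. Lungs were taken on day 21. No library of a mouse without bleomycin was analysed here, so the values compare 2 groups of injured lungs. Mice that had lost too little weight after bleomycin were left out by the authors, and the RNA was that of whole right lung lobes. The sample records place the BLM mice in the unpressurised chamber, and the Supplementary methods call them untreated.

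Fibroblasts lay down the collagen scaffold of the lung. After injury a part of them becomes activated, multiplies and secretes collagens together with matricellular proteins, which sit in the matrix and act on cell receptors more than they bear load. Transforming growth factor beta (TGF-beta) is the best known inducer of this state, and it is itself stored in the matrix by latent binding proteins. Of the 8 genes, Cthrc1, Postn, Tnc, Sparc and Cilp encode secreted matricellular proteins, Ltbp2 encodes a fibrillin-like matrix protein, Fap encodes a cell surface protease and Runx1 encodes a transcription factor.

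All 8 genes passed the filter on low counts. Library totals were 18157161 to 26365969 counts, and every pair of libraries of a group differed by more than counting noise. The sources do not say that each library was a separate mouse, so the P-values measure the spread between these libraries. BLM+HBO 2 stood apart from the other BLM+HBO libraries for these genes and lay within or near the BLM range, so counts of calls are also given without it where they change. The alveolar fibroblast markers were all detected in every library, as were those of endothelium, leukocytes and epithelium, as a lung sample should have them.

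The genes lie on 8 chromosomes of GRCm38. Cthrc1 spans chr15:39076932-39087121 on the + strand, Postn chr3:54361109-54391037 (+), Tnc chr4:63959785-64047015 (-), Fap chr2:62500943-62574075 (-), Ltbp2 chr12:84783212-84876532 (-), Sparc chr11:55394500-55423183 (-), Runx1 chr16:92601466-92826149 (-) and Cilp chr9:65265180-65280605 (+). The counts are those of whole genes over their exons, from 1593 merged exon bases in Cthrc1 to 12025 in Runx1. Genes on the opposite strand overlap Tnc (8030451A03Rik), Ltbp2 (D030025P21Rik) and Runx1 (Gm26626). These 3 genes held 212, 135 and 40 counts over all 7 libraries, and reads in shared exons count for neither gene at the default counting settings.

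The 250 bases before the start site are shown for 3 genes, because Tnc was the member with the lowest fold change, Postn was the one whose groups did not overlap, and Cilp holds the letters bound by the RUNX family, to which the member Runx1 belongs. RefSeq (GRCm38.p6) gave such a window for 6 of the 8 genes (Postn, Tnc, Ltbp2, Sparc, Runx1 and Cilp). For Postn, Tnc and Runx1 it listed 2 windows, and only the one nearest the start of the counted gene was searched. The Sparc window lies before a start site that is 3103 bases inside the counted gene. Sequences run 5′ to 3′ along the gene. Capitals mark exact letter matches only, TATAAA in Postn and Tnc and the RUNX letters TGTGGT in Cilp. In Cilp these lie on the other strand and read ACCACA. Whether a match works as a TATA box or as a binding site was not tested.

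Postn, chr3:54360857-54361106, + strand: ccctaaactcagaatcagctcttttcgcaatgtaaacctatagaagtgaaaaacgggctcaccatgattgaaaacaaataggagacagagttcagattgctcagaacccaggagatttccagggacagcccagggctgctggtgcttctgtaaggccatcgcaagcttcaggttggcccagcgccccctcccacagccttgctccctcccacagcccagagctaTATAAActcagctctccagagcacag

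Tnc, chr4:64047016-64047265, - strand: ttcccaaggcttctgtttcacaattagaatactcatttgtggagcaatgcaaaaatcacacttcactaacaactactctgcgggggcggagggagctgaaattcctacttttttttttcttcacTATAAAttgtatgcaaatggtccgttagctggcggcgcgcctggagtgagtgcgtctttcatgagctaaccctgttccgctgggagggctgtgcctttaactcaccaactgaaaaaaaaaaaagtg

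Cilp, chr9:65264930-65265179, + strand: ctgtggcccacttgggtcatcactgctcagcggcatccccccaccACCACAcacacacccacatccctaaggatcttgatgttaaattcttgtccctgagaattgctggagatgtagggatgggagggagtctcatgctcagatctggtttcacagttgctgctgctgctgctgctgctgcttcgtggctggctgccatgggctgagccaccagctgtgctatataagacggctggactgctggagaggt

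In Postn the TATAAA letters stood 26 to 21 bases before the start site, in Tnc 126 to 121 bases before it. TATAAA was in 12.3% of the 32536 windows of this length, searched on both strands, and in 2 of the 6 member windows. ACGTG was in 16.7% of all windows and in 1 of the 6, at 71 to 66 bases before the Runx1 start on both strands. The SMAD element CAGAC was in 42.2% of all windows and in 2 of the 6 (Ltbp2 and Sparc), and the RUNX letters TGTGGT in 14% and in 1 of the 6 (Cilp, 205 to 200 bases before the start). Neither the AP-1 letters TGACTCA (4.45% of all windows) nor the TEAD letters GGAATG (12.6%) were in the 6 windows. No motif was common to the 6 windows.

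Per length, the 8 genes covered more than 3 orders of magnitude of RNA level. Levels were compared in RPKM (counts scaled to exon length and library size). Sparc was highest, at 1060 to 1423 RPKM in the BLM libraries. Ltbp2 followed at 70.5 to 106.6, Postn at 43.9 to 74.2, Tnc at 32.2 to 81.8, Cthrc1 at 11.2 to 29.4, Cilp at 7.62 to 15.6, Runx1 at 7.79 to 12.2 and Fap at 0.381 to 0.846. Among neighbours in this order, the ranges were apart only between Sparc and Ltbp2, between Tnc and Cthrc1 and between Runx1 and Fap. Sparc is made by many cell types of the lung, whereas Fap had 41 to 85 counts in a BLM library.

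In the BLM+HBO libraries Sparc stayed highest at 683.3 to 1169 RPKM and Fap lowest at 0.348 to 0.566. The order between them changed library by library. Tnc lay at 4.91 to 36.1 RPKM, below Postn at 36.6 to 42.3 in 3 of 3 libraries, whereas in BLM Tnc was below Postn in 2 of 4. Ltbp2 ranged from 18.2 to 86.8 RPKM and Cilp from 1.28 to 11.3, so that these genes spread over several-fold within the 3 BLM+HBO libraries.

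**Figure D1:**
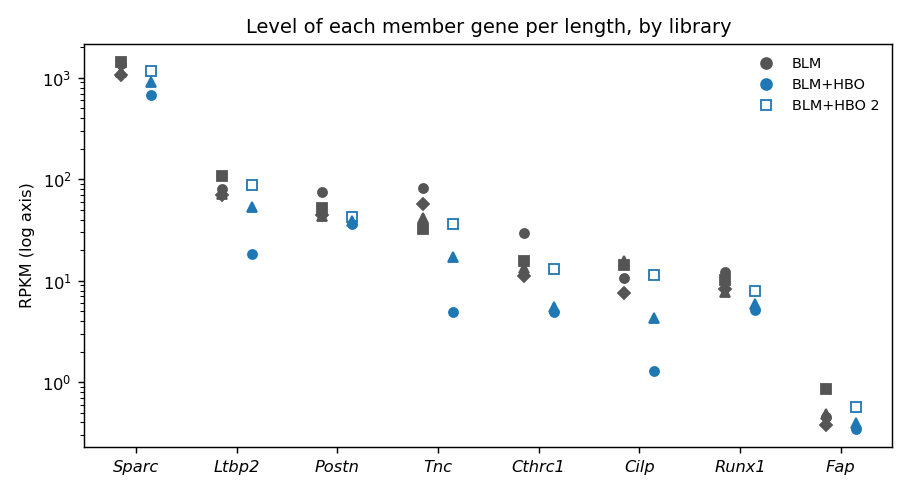
Level of each of the 8 genes in every library as RPKM on a log axis, with the 4 BLM libraries in grey and the 3 BLM+HBO libraries in blue (BLM+HBO 2 as an open square). Sparc lies above all others at 683.3 to 1423 RPKM and Fap below them at 0.348 to 0.846, and BLM+HBO 2 is the top blue point for every gene.

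The mean of every one of the 8 genes was lower in BLM+HBO than in BLM, and 3 of them passed the thresholds of the study: Cthrc1, Tnc and Runx1. These thresholds are a fold change above 1.5 and a P below 0.05 before adjustment. Over all 17465 tested genes, 2.89% were called lower by this rule with edgeR and the median log2 fold change was 0.01, against a median of -0.62 over the 8. As the 8 were chosen with earlier results of these data known, this is not independent evidence of a direction. DESeq2 called the same 3 genes. It was run without the filter on low counts and called 627 of 32868 genes lower (1.91%), against 504 of 17465 with edgeR. No member passed a Benjamini-Hochberg adjusted P below 0.05, their adjusted P in edgeR being 0.423 to 0.770. In whole lung RNA, fewer cells of a type and less RNA per cell cannot be told apart.

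The 3 calls depended on single libraries. When BLM 1 or BLM+HBO 3 was left out, none of the 8 was called. Leaving out BLM+HBO 1 kept Tnc alone, and leaving out BLM 4 kept Cthrc1 and Runx1. With BLM+HBO 2 left out, the number was 6 of 8 (all but Postn and Fap), where 5.41% of all genes were called lower. Calls of lower over all genes also changed, from 504 of 17465 to 303 of 17249 without BLM 1. They were 314 of 17831 without BLM+HBO 1, 369 of 17813 without BLM+HBO 3 and 536 of 17233 without BLM 4. The log2 fold change of each of the 8 genes was negative in every one of these fits.

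**Figure D2:**
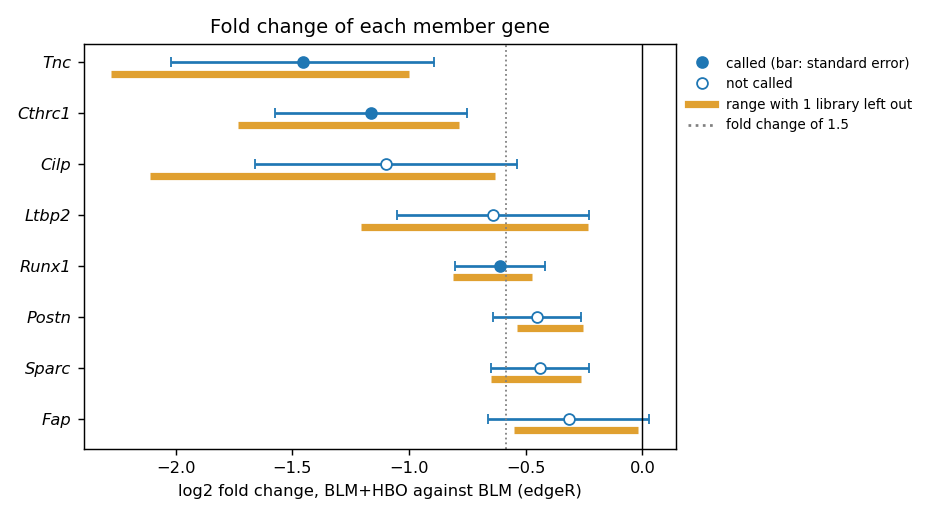
The log2 fold change of each gene, BLM+HBO against BLM, with its standard error (blue) and the range of the estimate when 1 of the 7 libraries was left out (orange). Filled points are the 3 genes called lower, the dotted line is a fold change of 1.5, and every range stays below 0, for Fap at -0.55 to -0.02 too.

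Tnc, the matricellular glycoprotein tenascin-C that is switched on again in injured tissue, had the lowest log2 fold change of the 8. Its CPM (counts scaled to a fixed library size) were 636, 250.5, 321.9 and 441.2 in BLM 1 to 4 and 38.2, 280.7 and 131.8 in BLM+HBO 1 to 3. BLM+HBO 1 and 3 lay below every BLM library, while BLM+HBO 2 lay above BLM 2. Tnc fell to 0.364 of the BLM level (log2 fold change -1.46 ± 0.56 SE, adjusted P = 0.439, edgeR). The coefficient of variation was 40.9% in BLM and 81.4% in BLM+HBO. Leaving out BLM 1 (log2 fold change -1.17), BLM 4 (-1.42) or BLM+HBO 3 (-1.37) ended the call.

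Cthrc1 encodes a secreted protein with a short collagen triple helix repeat and is a usual marker of the collagen-rich fibroblasts of fibrotic lung. It measured 46.9, 24.9, 21.4 and 17.8 CPM in the BLM libraries and 7.83, 20.5 and 8.81 CPM in BLM+HBO 1 to 3. The 2 lowest values were those of BLM+HBO 1 and 3, and BLM+HBO 2 lay above BLM 4, so the groups overlapped. Cthrc1 fell to 0.447 of the BLM level (log2 fold change -1.16 ± 0.41 SE, adjusted P = 0.423, edgeR). BLM 1 stood well above the other BLM libraries, and without it the log2 fold change was -0.79 and no longer called. The same held when BLM+HBO 1 (-0.92) or BLM+HBO 3 (-0.96) was left out.

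Postn encodes periostin, an integrin ligand that takes part in the assembly of collagen fibres. Its levels were 646, 454.5, 382.1 and 387.5 CPM in BLM and 318.3, 367.8 and 338.9 CPM in BLM+HBO. All 3 BLM+HBO libraries lay below all 4 BLM libraries, and Postn was the only one of the 8 with this pattern, which 4.72% of all tested genes showed in this direction. The difference was small, at 0.731 of the BLM level, and passed the P limit but not the fold limit (log2 fold change -0.45 ± 0.19 SE, adjusted P = 0.454, edgeR). The spread within BLM+HBO was 7.28% of the mean, the narrowest of the 8 genes, against 26.4% in BLM.

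Sparc, a collagen-binding protein also called osteonectin, measured 5242, 5389, 4356 and 4015 CPM in BLM and 2588, 4429 and 3481 CPM in BLM+HBO. BLM+HBO 2 lay inside the BLM range and the other BLM+HBO libraries under it. The mean was at 0.737 of the BLM level and was not called (log2 fold change -0.44 ± 0.21 SE, adjusted P = 0.494, edgeR). It was called without BLM+HBO 2, at a log2 fold change of -0.65, and the value was -0.26 when BLM+HBO 1 was left out. Endothelial cells and pericytes also make Sparc. The 9 endothelial markers summed to 3155 to 4030 CPM in BLM and 3483 to 4073 CPM in BLM+HBO with none of the 9 called, and the 12 smooth muscle and pericyte markers summed to 1185 to 1511 CPM in BLM and 775.8 to 1317 CPM in BLM+HBO with 1 of 12 called lower (Acta2). Without BLM+HBO 2, as for Sparc, more of the smooth muscle and pericyte markers were called lower, 5 of 12, and still none of the endothelial ones. Over all genes, 2.89% were called lower with all 7 libraries and 5.41% without BLM+HBO 2. The part of endothelial cells and pericytes in the Sparc values was not tested.

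Cilp encodes cartilage intermediate layer protein, which is known from cartilage and from fibroblasts of the heart and can bind TGF-beta. Its levels were 45.2, 61.0, 66.4 and 32.4 CPM in BLM and 5.43, 48.2 and 18.0 CPM in BLM+HBO. BLM+HBO 1 held 102 counts, the fewest of the 7 libraries, BLM+HBO 3 was also below the BLM range, and BLM+HBO 2 was inside it. The mean was at 0.467 of the BLM level, but with a coefficient of variation of 92.0% in BLM+HBO it was not called (log2 fold change -1.10 ± 0.56 SE, adjusted P = 0.516, edgeR). Without BLM+HBO 2 it was called, at a log2 fold change of -2.11, and with BLM+HBO 1 left out the value was -0.63.

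Markers of cartilage and heart muscle were examined beside Cilp. Of 10 cartilage markers 4 were tested, and they summed to 16.7 to 20.0 CPM in BLM and 11.5 to 22.1 CPM in BLM+HBO over the whole list, with Acan, Matn1, Snorc and Cnmd at 0 in at least 1 library. Only Sox9, the transcription factor of cartilage cells, was called among the 4 (log2 fold change -1.20 ± 0.49 SE), where 2.89% of all genes were called lower. Of the 10 heart muscle markers 9 were called higher, where 3.4% of all genes were, and none was at 0. Without BLM+HBO 2 the count was 8, where 5.29% of all genes were called higher. With all 7 libraries the marker not called was Nppa, with a log2 fold change of 0.34 ± 1.0 SE. They summed to 64.3 to 179.7 CPM in BLM and 158.3 to 664.5 CPM in BLM+HBO, and the highest sum was that of BLM+HBO 1, in which Cilp was lowest. BLM+HBO 2 also had a high sum, at 535.8 CPM, with Cilp inside the BLM range. The part of cartilage or heart tissue in the Cilp values was not tested.

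**Figure D3:**
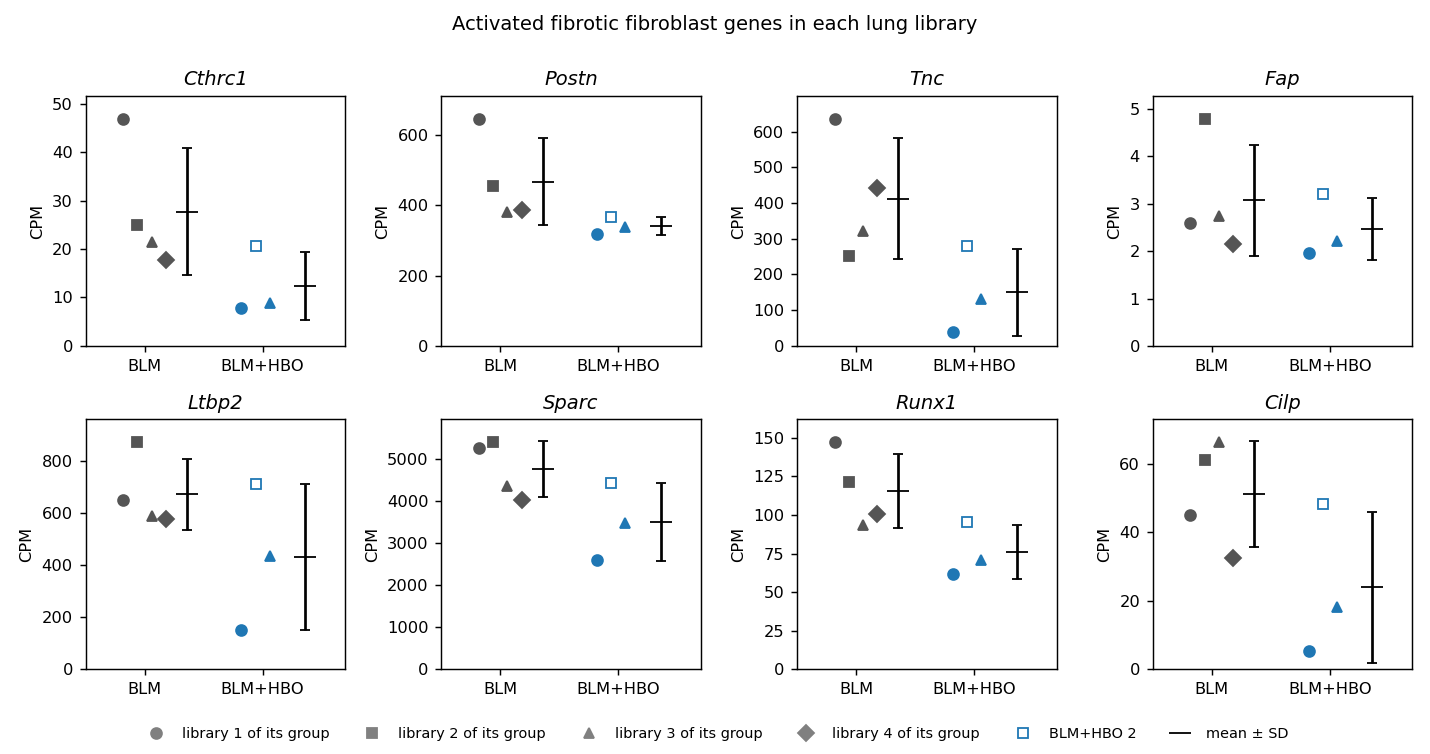
CPM of the 8 genes in each library, one panel per gene with its axis from 0, where the marker shape gives the library number within its group, BLM is grey and BLM+HBO is blue, and the black bar is the mean with the SD. The panels show BLM+HBO 1 at the bottom for all 8 genes and BLM+HBO 2 (open square) among the BLM values for all but Postn.

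Ltbp2 belongs to the latent TGF-beta binding proteins but, unlike its relatives, is not known to hold latent TGF-beta, and it is a component of elastic microfibrils. It measured 648.7, 872.2, 589.4 and 577.2 CPM in BLM and 149.4, 710.6 and 433.6 CPM in BLM+HBO. BLM+HBO 2 exceeded every BLM library but BLM 2, whereas BLM+HBO 1 was far under the others. The mean was at 0.642 of the BLM level and was not called (log2 fold change -0.64 ± 0.41 SE, adjusted P = 0.607, edgeR). The size depended on single libraries, being -0.23 with BLM+HBO 1 left out and -1.21, and then called, with BLM+HBO 2 left out.

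Fap encodes fibroblast activation protein, a serine protease on the surface of activated fibroblasts. It had 2.59, 4.79, 2.75 and 2.16 CPM in BLM and 1.97, 3.21 and 2.21 CPM in BLM+HBO. The groups overlapped broadly, and BLM+HBO 2 held the second highest value of all. The difference was within the spread between libraries and was not called (log2 fold change -0.32 ± 0.35 SE, adjusted P = 0.770, edgeR).

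Runx1, a DNA-binding transcription factor that acts with its partner Cbfb and is best known from blood formation, had 147.2, 121.3, 93.7 and 100.6 CPM in BLM and 61.5, 95.3 and 70.5 CPM in BLM+HBO. BLM+HBO 2 was just above BLM 3 and the other BLM+HBO libraries were below all BLM libraries. Runx1 fell to 0.655 of the BLM level (log2 fold change -0.61 ± 0.19 SE, adjusted P = 0.423, edgeR), which is near the fold limit. Leaving out BLM 1 (-0.47), BLM+HBO 1 (-0.48) or BLM+HBO 3 (-0.56) ended the call, and the estimate with upper-quartile scaling (-0.58) was under the fold limit.

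Leukocytes express Runx1 as well. The 11 leukocyte markers summed to 1092 to 1166 CPM in BLM and 840.5 to 1356 CPM in BLM+HBO, with 1 of 11 called lower and 2 called higher and none at 0. Without BLM+HBO 2, 3 of 11 were called lower and 2 higher. Over all genes, 2.89% were called lower and 3.4% higher, and without BLM+HBO 2 these shares were 5.41% and 5.29%. The macrophage marker Adgre1 was at 114.2, 86.9, 65.4 and 71.2 CPM in BLM and 46.8, 71.1 and 43.9 CPM in BLM+HBO (log2 fold change -0.65 ± 0.23 SE, adjusted P = 0.423, edgeR). The B cell genes Cd79a and Ms4a1 were called higher, with log2 fold changes of 0.90 ± 0.29 and 1.05 ± 0.35. Their part in the Runx1 value was not tested.

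The 8 genes shared their lowest library. BLM+HBO 1 was the lowest of the 7 libraries for 8 of 8 genes. BLM+HBO 3 was below every BLM library for 7 of 8 and BLM+HBO 2 for 1 of 8. The highest library was BLM 1 for 4 genes, BLM 2 for 3 and BLM 3 for 1. The mean of the standardized log2 CPM over the 8 genes was 0.97, 0.83, 0.22 and 0.02 in BLM 1 to 4 and -1.58, 0.25 and -0.71 in BLM+HBO 1 to 3. BLM+HBO 2 thus lay between BLM 2 and BLM 3.

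Across the 7 libraries the 28 pairs of member genes had Pearson r from 0.34 to 0.97 with a median of 0.79. The 7 pairs with Fap had a median of 0.56 and the 21 others 0.86. All pairs come from the same 7 libraries and share their cell composition, so these values are a description. The genes most like the mean profile of the 8, out of the tested genes that are no members, were Igf1 (r = 0.999), Plod1 (0.996), P4ha3 (0.996), Lox (0.993), Fbn2 (0.992), C1qtnf6 (0.991), Hhipl1 (0.991) and Gm39822 (0.989). Without BLM+HBO 1 and 3, the libraries farthest from the median, these r were 0.933 to 0.996. As the genes were picked by their r over all 7 libraries, this is a description and no check of the likeness. Igf1, a growth factor, was at 197.4, 180.6, 137.3 and 117.2 CPM in BLM and 49.8, 133 and 80.8 CPM in BLM+HBO. Its libraries had the order of the member profile, except that BLM 3 and BLM+HBO 2 changed places.

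The 28 partner genes, collagens, crosslinking enzymes and other secreted products usually found in the same fibroblasts, were mostly lower in BLM+HBO. Of the 28, 17 (60.7%) were called lower, where 2.89% of all genes were, and none higher, 27 had a lower mean, and the median log2 fold change was -0.95. The list was made with earlier results of these samples known, so it is not independent evidence of a direction. BLM+HBO 1 was the lowest library for 26 of the 28. Leaving out BLM 1 gave 4 calls in place of 17, BLM 2 gave 11, BLM+HBO 1 gave 5, BLM+HBO 2 gave 24 and BLM+HBO 3 gave 4. Of all tested genes, 504 of 17465 were called lower with all 7 libraries. The number was 303 of 17249 without BLM 1 and 421 of 17302 without BLM 2. It was 314 of 17831 without BLM+HBO 1 and 369 of 17813 without BLM+HBO 3. Without BLM+HBO 2, 5.41% of all genes were called lower.

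Among the partners with the smallest P was Ccn4, a matricellular protein of the CCN family, at 101.7, 62.8, 56.5 and 52.5 CPM in BLM and 16.1, 49.9 and 19.7 CPM in BLM+HBO, with no overlap between the groups (log2 fold change -1.26 ± 0.39 SE, adjusted P = 0.423, edgeR). The fibrillar collagen gene Col1a1 was at 3133, 2234, 2177 and 1766 CPM in BLM and 318.3, 1806 and 910 CPM in BLM+HBO (-1.20 ± 0.47). Lox, which crosslinks collagen, was at 798.6, 603.6, 465.9 and 337.9 against 89.3, 380.2 and 170.3 CPM (-1.37 ± 0.45). For Col1a1 and Lox, BLM+HBO 2 was just above BLM 4, and the other BLM+HBO libraries lay below all of BLM.

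The other 5 partners named by the rule were called lower too. The metalloprotease gene Adam12 had a log2 fold change of -1.45 ± 0.47, Thbs2 (thrombospondin 2) of -1.47 ± 0.57 and Timp1 (an inhibitor of metalloproteases) of -1.53 ± 0.58. Mmp14, a collagenase on the cell surface, was at 394.1 to 476.8 CPM in BLM and 127.5 to 382.2 CPM in BLM+HBO (-0.82 ± 0.30), and Col12a1 at 126.6 to 189.6 and 51.4 to 119.8 CPM (-0.71 ± 0.26). For Mmp14 and Col12a1 the groups did not overlap.

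**Figure D4:**
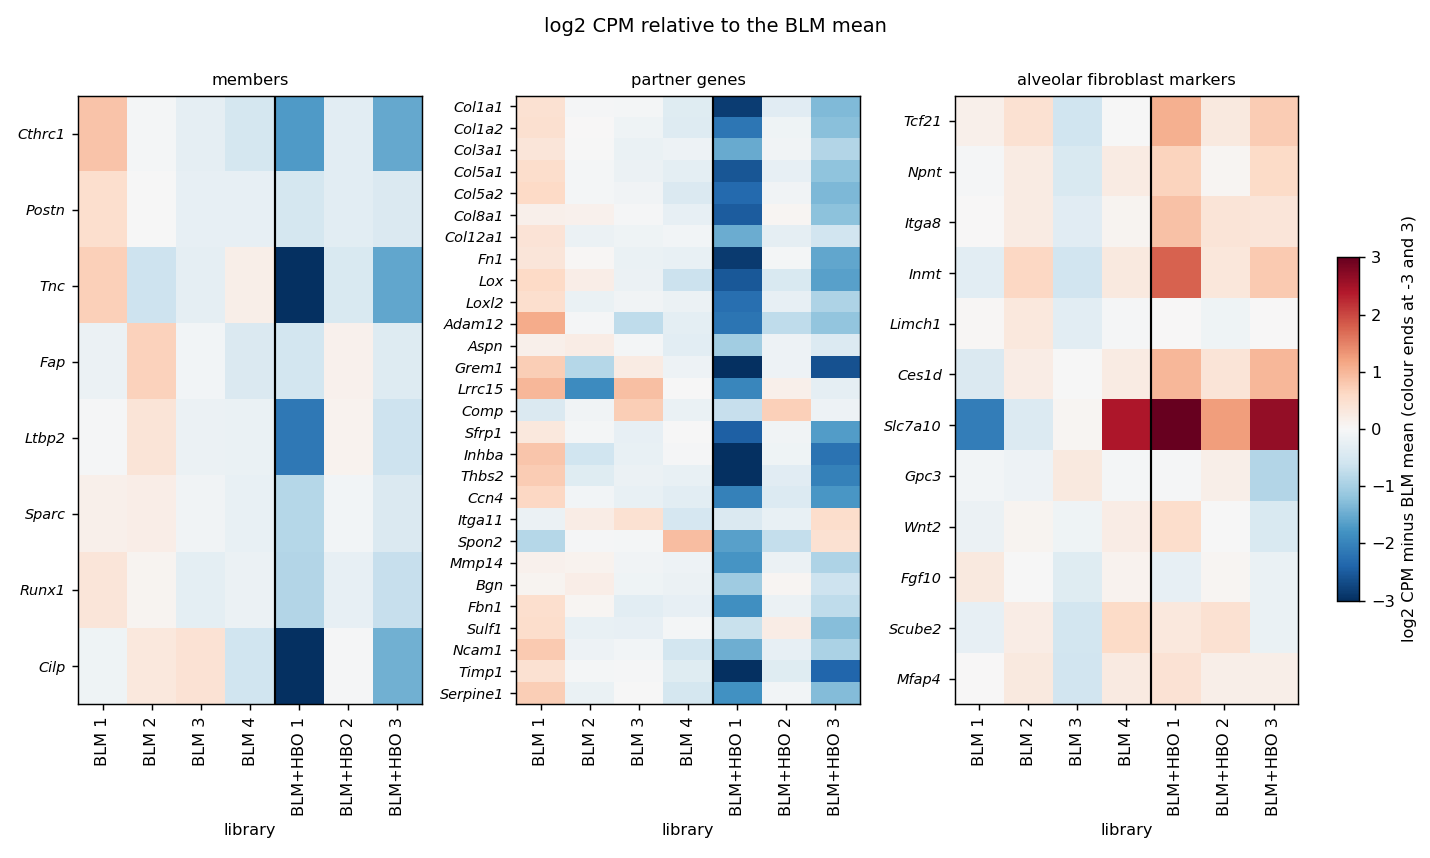
log2 CPM of each gene minus its mean over the 4 BLM libraries, by library, for the 8 member genes, the 28 partner genes and 12 alveolar fibroblast markers; blue is below and red above the BLM mean, and values beyond -3 and 3 take the end colours. BLM+HBO 1 and 3 are blue for most members and partners, BLM+HBO 2 is pale, and Tcf21, Inmt and Ces1d are red in BLM+HBO 1 and 3.

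Alveolar fibroblast markers, the genes of the resting lipid-rich fibroblasts around the air sacs, did not share this direction. Of 12 markers, 9 had a higher mean in BLM+HBO and 3 were called higher, where 3.4% of all genes were, and none was called lower. Without BLM+HBO 2, 6 of 12 were called higher, where 5.29% of all genes were. Tcf21, a transcription factor of these cells, was at 37.0, 45.5, 21.6 and 32.5 CPM in BLM and 69.5, 40.5 and 56.4 CPM in BLM+HBO (log2 fold change 0.70 ± 0.25 SE, adjusted P = 0.423, edgeR). The esterase gene Ces1d was at 193 to 310.8 CPM in BLM and 344.6 to 524.2 CPM in BLM+HBO with no overlap (0.79 ± 0.20), and the methyltransferase gene Inmt was called too (1.02 ± 0.36). The list summed to 1943 to 2975 CPM in BLM and 2696 to 3973 CPM in BLM+HBO.

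Other fibroblast and stromal lists moved in part with the members. Of 7 pan-fibroblast markers, 3 were called lower (Col1a2, Dcn and Lum), and the list summed to 2928 to 4401 CPM in BLM and 1659 to 3209 CPM in BLM+HBO. Of this sum Col1a2, which is also a called partner gene, held 1677 to 3039 CPM in BLM and 482.6 to 1996 CPM in BLM+HBO. Fbln1 (log2 fold change 0.45 ± 0.22 SE) and Mfap4 (0.23 ± 0.21) had higher means in BLM+HBO and were not called. Without BLM+HBO 2, 4 of these 7 were called lower and 1 higher. Of 10 adventitial fibroblast markers, Dcn was called lower and Dpp4 higher (sums of 1910 to 2131 and 1495 to 2043 CPM), and 2 were called lower and 1 higher without BLM+HBO 2. Over all genes, 2.89% were called lower and 3.4% higher, and without BLM+HBO 2 these shares were 5.41% and 5.29%. Acta2, the smooth muscle actin of myofibroblasts, was at 290.2 to 457.2 CPM in BLM and 177.6 to 314.5 CPM in BLM+HBO (log2 fold change -0.76 ± 0.22 SE, adjusted P = 0.423, edgeR). With all 7 libraries it was the only called gene of the 12 smooth muscle and pericyte markers. Of these 12, 9 had a lower mean and 3 a higher mean, namely Myh11 (0.07), Cnn1 (0.24) and Lmod1 (0.04).

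Mesothelial and epithelial markers held calls as well. Of 6 mesothelial markers, which belong to the cells of the pleural surface, Msln and Wt1 were called lower, and the sums were 642.1 to 1100 CPM in BLM and 381.4 to 729.4 CPM in BLM+HBO. With BLM+HBO 2 left out, 4 of the 6 were called lower, where 5.41% of all genes were, against 2.89% with all 7 libraries. The 9 epithelial markers summed to 12290 to 22762 CPM in BLM and 18486 to 37808 CPM in BLM+HBO, with Scgb1a1, a secretory protein of the airways, called higher (log2 fold change 0.73 ± 0.32 SE). Most of these sums came from Scgb1a1 (4844 to 10541 CPM in BLM, 8262 to 17061 in BLM+HBO) and Sftpc (4549 to 9381 and 6535 to 16262). Epcam, Cdh1 and Ager had log2 fold changes of 0.03, 0.13 and -0.01. With BLM+HBO 2 left out, 2 of the 9 were called higher, where 5.29% of all genes were, against 3.4% with all 7 libraries. BLM+HBO 2 was at 18486 CPM, inside the BLM range. None of these markers was at 0 in a library, and their part in the values of the members was not tested.

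Family relatives of the members divided by direction. Of 19 relatives, 17 were tested. Among these, 5 (29.4%) were called lower and 2 (11.8%) higher, where 2.89% and 3.4% of all genes were. The median log2 fold change of the relatives was -0.16. With BLM 1 left out 4 were called in place of 7, with BLM+HBO 1 left out 2 and with BLM+HBO 3 left out 1. Of all tested genes, 504 of 17465 were called lower and 594 higher with all 7 libraries. Without BLM 1 these counts were 303 and 403 of 17249. They were 314 and 345 of 17831 without BLM+HBO 1, and 369 and 512 of 17813 without BLM+HBO 3. Tgfbi, the fasciclin relative of Postn, was at 302.5, 297, 327.3 and 325.3 CPM in BLM and 203.2, 247.4 and 169.3 CPM in BLM+HBO, with all BLM+HBO libraries below all of BLM. It fell by 0.60 on the log2 scale (SE 0.14, adjusted P = 0.423, edgeR).

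Tnxb, the tenascin of resting connective tissue, was called higher where Tnc was called lower. Its levels were 36.0, 32.1, 42.5 and 56.9 CPM in BLM and 67.9, 44.6 and 101.2 CPM in BLM+HBO (log2 fold change 0.77 ± 0.27 SE, adjusted P = 0.423, edgeR). Per length, the ratio of Tnc to Tnxb was 30.6, 13.5, 13.1 and 13.4 in BLM and 0.975, 10.9 and 2.26 in BLM+HBO, so that all 3 BLM+HBO libraries lay below all 4 BLM libraries. This ratio was chosen after its values were seen and was not tested. The other ratios of a member to a relative that were examined all overlapped between the groups.

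Fap and Dpp4 are neighbouring protease genes of one family. Dpp4 was called higher, with 42.8, 58.5, 50.6 and 71.0 CPM in BLM and 118.6, 60.9 and 88.2 CPM in BLM+HBO (log2 fold change 0.68 ± 0.23 SE, adjusted P = 0.423, edgeR). BLM+HBO 2 lay within the BLM range. The ratio of Fap to Dpp4 per length overlapped between the groups.

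In the Sparc family, Sparcl1 (-0.75 ± 0.31), Smoc2 (-1.06 ± 0.37) and Fstl1 (-0.90 ± 0.32) were called lower on the log2 scale, and Ltbp1, which does hold latent TGF-beta, was called lower beside Ltbp2 (-0.59 ± 0.23). Sparcl1 was at 1375 to 2356 CPM in BLM and 741.4 to 1645 CPM in BLM+HBO, and Fstl1 at 444.3 to 920.6 and 214.1 to 505.5 CPM. In both, BLM+HBO 2 was inside the BLM range and the other BLM+HBO libraries below it. None of Runx2, Runx3 and Cbfb, the relatives and the partner of Runx1, was called.

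**Figure D5:**
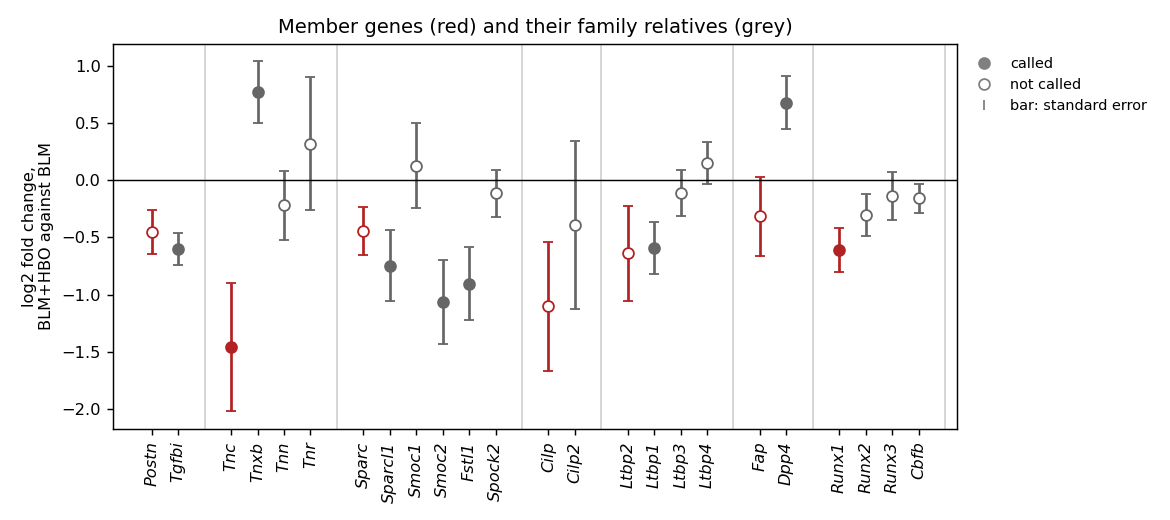
The log2 fold change, BLM+HBO against BLM, of the 8 members without Cthrc1, which has no relative in the list (red), and of 17 tested relatives (grey) in 7 families, with standard errors; filled points were called. Tnc at -1.46 and Tnxb at 0.77 lie on opposite sides of 0, as do Fap at -0.32 and Dpp4 at 0.68.

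Of 14 TGF-beta ligands, receptors, SMADs and targets, 13 had a lower mean in BLM+HBO, 2 (14.3%, against 2.89% of all genes) were called lower and none higher, and the median log2 fold change was -0.13. The ligand Tgfb3 was at 103.4, 108.7, 93.1 and 76.3 CPM in BLM and 46.5, 72.4 and 71.7 CPM in BLM+HBO, without overlap (log2 fold change -0.59 ± 0.18 SE, adjusted P = 0.423, edgeR). Pmepa1, a target that feeds back on the pathway, was at 255.4 to 373.9 CPM in BLM and 108 to 241.9 CPM in BLM+HBO, also without overlap (-0.81 ± 0.25). The count of 2 became 1 when BLM 1 or BLM 2 was left out, 0 when BLM+HBO 1 was and 3 when BLM+HBO 2 was. Of all tested genes, 504 of 17465 were called lower with all 7 libraries and 303 of 17249 without BLM 1. The number was 421 of 17302 without BLM 2 and 314 of 17831 without BLM+HBO 1. Without BLM+HBO 2, 5.41% of all genes were called lower.

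Receptors of the matricellular proteins were mostly under the fold limit. Of 18 integrin, syndecan, Wnt-coreceptor and other receptor genes, 7 had a P below 0.05 with a lower mean, as 5.54% of all genes had, and 1 with a higher mean, as 5.11% of all genes had. Of these, 1 was called (5.56% of the 18, where 2.89% of all genes were called lower). This was Ror2, a Wnt receptor kinase with which Cthrc1 can act, at 16.4, 18.3, 12.5 and 17.2 CPM in BLM and 3.78, 12.9 and 9.45 CPM in BLM+HBO (log2 fold change -0.88 ± 0.34 SE, adjusted P = 0.440, edgeR). BLM+HBO 2 was just above BLM 3. The count of receptors called in either direction became 0 when BLM 1 or BLM+HBO 1 was left out, 3 when BLM 2 was and 2 when BLM 3 was. It became 7 when BLM+HBO 2 was, with 6 lower and 1 higher, where 5.41% and 5.29% of all genes were. Of all tested genes, 303 of 17249 were called lower and 403 higher without BLM 1. Without BLM+HBO 1 these counts were 314 and 345 of 17831. They were 421 and 443 of 17302 without BLM 2, and 496 and 785 of 17227 without BLM 3. The most abundant receptor genes, Itgb1 and Sdc4, had log2 fold changes of -0.24 ± 0.15 and -0.31 ± 0.12 and were not called.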

How the data were processed

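RNA of right lung lobes (4 BLM, 3 BLM+HBO) was made into libraries with the NEBNext Ultra kit and sequenced as paired ends. Per the labels, HISAT2 2.2.0 and featureCounts (listed as 2.2.0) were used with GRCm38, and the deposited values are raw counts per gene, which the authors made at default settings without strand. Gene symbols and spans came from GENCODE vM21. All 7 columns of values were assigned to a library. Low genes were left out by filterByExpr (at least 10 counts, and 15 in total), and the rest were scaled by TMM (factors 0.964 to 1.036) and tested with the quasi-likelihood test of edgeR 4.0.16 under R 4.3.3, with BLM as the reference and a common biological coefficient of variation of 0.222. Called means P below 0.05 with a fold change above 1.5. CPM and RPKM used TMM-scaled totals, and log2 CPM a prior count of 2. DESeq2 1.42.0 and limma 3.58.1 were alternatives. The fit was checked on simulated data, in which no library was made to stand apart from its group as BLM+HBO 2 did. The members, gene lists, motifs and tests were chosen with earlier results of these data known. All members were named, and of each list the called genes (at most 8, by smallest P) or, where fewer than 2 were called, the 2 most abundant genes, with the 8 genes most like the mean member profile.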

Additional observations from a re-analysis of the deposited data

Results flagged for a closer look

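In the BLM group, 3 values of 29 examined stood far from the other libraries by a gap test that chance passes in about 1 group in 20. BLM 1 had a log2 CPM of 7.57 for Col12a1, a collagen of the partner list, where the rest of the group had 6.98 to 7.08. For Thbs2 it had 6.32, against 5.21 to 5.39 in the rest. The total count of BLM 4 was 19002242, where the other BLM libraries had 18436336 to 18452895. No member gene had a value set apart in this way.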

How the results depend on the processing

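Over 128 member fold changes under alternatives, 128 were negative, 105 stayed on the same side of the thresholds, 15 were no longer past them and 8 were newly past. The 3 called members became 5 without the filter on low counts, 0 at a P limit of 0.01 and 0 at an adjusted P below 0.05, and 0 to 6 when 1 library was left out. Without the filter Cthrc1, Tnc and Runx1 had an adjusted P of 0.0192, 0.0165 and 0.0430. In that fit 387 of 32896 genes had an adjusted P below 0.05, against 0 of 17465 with the filter. The genes called lower were 863 of 32896 there, against 504 of 17465. With 1 library left out, 303 to 968 of all tested genes were called lower. The 17 partners became 9 with robust empirical Bayes, 9 at a fold change above 2, 1 at a P limit of 0.01, 0 at an adjusted P below 0.05 and 4 to 24 with 1 library left out. The 7 relatives became 1 at a fold change above 2, 1 at a P limit of 0.01, 0 at an adjusted P below 0.05 and 1 to 7 with 1 library left out. The 2 TGF-beta genes became 1 with upper-quartile factors, 1 with the limit of 1 CPM in 3 libraries, 0 at a fold change above 2, 0 at an adjusted P below 0.05 and 0 to 3 with 1 library left out. The 1 receptor became 2 with limma-trend, 0 at a fold change above 2, 0 at a P limit of 0.01, 0 at an adjusted P below 0.05 and 0 to 7 with 1 library left out.

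In log2 fold changes, Tnc was no longer called with robust empirical Bayes (-1.46) and Runx1 with upper-quartile factors (-0.58). Exact permutation tests of log2 CPM gave -1.19 for Cthrc1 (p = 0.0857), -1.79 for Tnc (p = 0.0571) and -0.61 for Runx1 (p = 0.0857), where 0.0286 is the smallest p that 35 assignments allow. Ltbp2 was newly called without the filter (-0.65), and Cilp with limma-trend (-1.55) and without the filter (-1.11). With 1 library left out the log2 fold change ranged from -1.74 to -0.79 for Cthrc1, -0.54 to -0.26 for Postn, -2.28 to -1.0 for Tnc, -0.55 to -0.02 for Fap, -1.21 to -0.23 for Ltbp2, -0.65 to -0.26 for Sparc, -0.81 to -0.47 for Runx1 and -2.11 to -0.63 for Cilp. The cause of these changes was not tested.

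The replicate numbers 1 to 3 are shared by the groups. The deviations of same-numbered libraries had r of -0.01, -0.07 and 0.16, and those of differently numbered libraries had r of -0.18 to 0.17. With so few libraries, these values cannot decide whether the libraries were paired. With the replicate block 4 members were called, Tnc was lost (-1.64), Ltbp2 (-0.94) and Cilp (-1.71) were newly past the thresholds, and 3 receptors were called. The number of libraries, 4 against 3, limits the precision of every comparison.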
